A study of Rattus norvegicus with 8 samples.

Results

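The genes described here were on in endothelial cells of the rat dura and close to silent in endothelial cells of the leptomeninges. They are the 37 genes, of 32754 Ensembl identifiers counted, with a CPM of 2 or more in all 4 dura libraries and under 0.5 in all 4 leptomeninges libraries. CPM scales a gene's count to a library total of 1000000 reads. These thresholds used the difference between the tissues, so that difference is the definition of the genes and is given as a description, with no test. The deposited tables name genes by identifier, and 0 of the 32754 identifiers could be matched to a gene symbol in the reference used here. What the genes encode, their sequences and their place in the genome are therefore not analysed here, and only the leading 2 are named.

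RNA was sequenced from CD31+ CD45- CD11b- cells sorted from naive wild-type Lewis rats, an inbred strain. No animal was treated. The dura group (brDura in the labels) and the leptomeninges group (brLepto) each had 4 libraries, and each library pooled tissue of 4 animals, so differences between individual animals cannot be seen. The sources used here give neither sex nor age.

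The dura is the fibrous covering of the brain that lines the skull, and the leptomeninges are the delicate arachnoid and pia beneath it. Blood vessels of the dura lie outside the blood-brain barrier and are known to be permeable, and the dura also holds lymphatic vessels, whose endothelial cells carry CD31. Vessels of the leptomeninges have tight junctions and share many properties of brain vessels. CD31 marks endothelial cells of all of these vessels. In bulk samples fewer cells of a type and less RNA per cell cannot be told apart. Marker genes need symbols, so the sorted cells were not checked against markers of other cell types.

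Depth was between 13291422 and 34451333 counted reads in dura and between 15988636 and 24447082 in leptomeninges. The dura threshold of 2 CPM stood for 26.6 to 68.9 counts, and the leptomeninges threshold of 0.5 CPM for 7.99 to 12.2 counts. "Off" here therefore means a few reads in a library, not 0 reads. In the comparison of the tissues across 13458 tested genes, edgeR's quasi-likelihood test called 15.9% of the genes higher in dura at a Benjamini-Hochberg adjusted p under 0.05. All 37 genes were among them, which their selection on this difference largely fixes.

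The 37 genes were weakly expressed in dura. The rule favours such genes, because its fixed ceiling in leptomeninges asks for a larger ratio of a stronger gene. Their mean CPM in dura ranged from 2.35 to 49.4 with a median of 6.07, and 23 of them reached 5 CPM, 9 reached 10 CPM and 2 reached 20 CPM. The 10813 genes at 2 CPM or more in every dura library had a median of 33.5 CPM, and 2 of the 37 lay above it. The 10 highest members made up 56.1% of the summed level in dura and the leading 2 made up 26.0%.

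The member with the highest level in dura was ENSRNOG00000009291. It stood at 67.3, 45.7, 44.6 and 40.1 CPM in dura replicates 1 to 4, and at 0, 0.375, 0 and 0.286 CPM in leptomeninges replicates 1 to 4. Its leptomeninges counts came from replicates 2 and 4 alone, 13 reads in all, and its lowest dura value was 107 times its highest leptomeninges value. The fitted log2 fold change of dura over leptomeninges was 8.14.

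ENSRNOG00000003221 was second, with 51.1, 20.8, 41.8 and 38.5 CPM in dura replicates 1 to 4. In leptomeninges replicates 1 to 4 it stood at 0.256, 0, 0.49994 and 0.368 CPM, 25 reads in all, and its value in replicate 3 lay just under the threshold. Dura replicate 2 was the low library for this gene, at less than the level of each other dura library, and still 41.7 times the highest leptomeninges value. The fitted log2 fold change was 6.87. Over the 37 genes the fitted log2 fold changes ran from 3.63 to 9.35 with a median of 5.46, beside a median of 0.01 over all tested genes. The upper end rested on few leptomeninges reads: it was 11.14 without leptomeninges replicate 3 and 11.0001 without replicate 4. In each of these cases 2 members were left with 0 leptomeninges counts, where a fitted fold change is no bound, and the medians were 5.46 and 5.69.

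**Figure D1:**
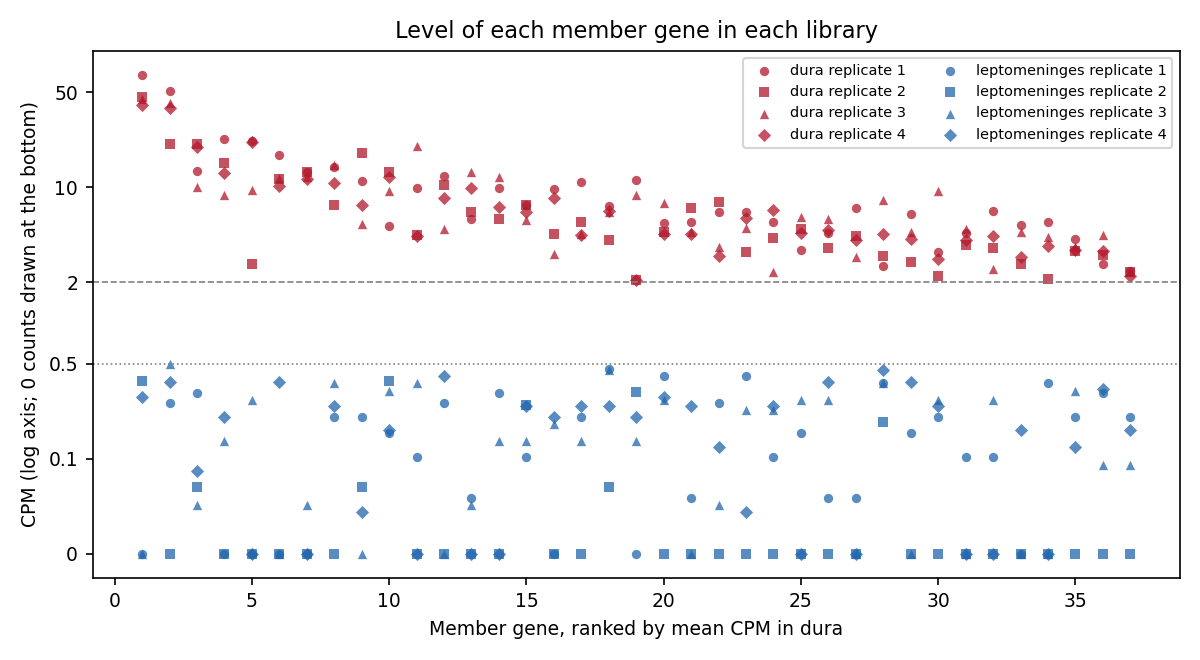
CPM of each of the 37 genes (x axis, ranked by mean CPM in dura) in each of the 8 libraries (y axis, log scale, with 0 counts drawn at the bottom). Red points are dura and blue points leptomeninges, one marker shape per replicate, and the lines mark 2 and 0.5 CPM. Dura values spread from 2.06 to 67.3 CPM, and most points of leptomeninges replicate 2 lie at 0.

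The rule itself sets the lowest dura value of a gene at over 4 times its highest leptomeninges value. Within that condition, the ratio ran from 5.85 to 254 with a median of 12.7, and it was at least 10 in 25 genes, at least 20 in 12 and at least 50 in 4. The mean level in leptomeninges was between 0.0925% and 7.44% of that in dura, with a median of 2.01%.

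None of the 37 genes was without reads in leptomeninges. Of the 37, 5 had reads in all 4 leptomeninges libraries, 14 had 0 counts in 1 library, 11 in 2 and 7 in 3. The reads of a gene over the 4 leptomeninges libraries ranged from 1 to 29 with a median of 10. A gene on in every dura library with no leptomeninges reads would be a member by the rule. That 0 of the 10813 genes on in every dura library lacked such reads therefore follows from the 37.

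The widest ratio was in the member ranked 7 in dura, singled out after its values were seen. It was at 12.9, 12.9, 11.8 and 11.5 CPM in dura replicates 1 to 4, and its leptomeninges reads came to 1, in replicate 3. Its 4 dura values were also among the most even of the set, with a highest value 1.12 times the lowest. The narrowest ratio was in the member ranked 28, with 29 leptomeninges reads spread over all 4 libraries and a lowest dura value of 2.63 CPM.

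The leptomeninges libraries did not carry the residual reads equally. The 37 genes together held 119 reads in replicate 1, 27 in replicate 2, 132 in replicate 3 and 158 in replicate 4. This is a summed level of 6.10 CPM (95% exact binomial interval 5.06 to 7.30) in replicate 1 and 1.69 CPM (1.11 to 2.46) in replicate 2. Replicates 3 and 4 stood at 5.999 CPM (5.02 to 7.11) and 6.46 CPM (5.49 to 7.55). The interval of replicate 2 lay below those of the other 3, which overlap one another. It had 0 counts for 29 of the 37 genes, against 8, 10 and 10 in replicates 1, 3 and 4. Replicate 2 was also the leptomeninges library with the fewest reads and the fewest genes detected, 14292 against 15949 to 17845, and the part of either in this result was not tested. The intervals cover counting error alone and leave out the spread between pools. They may be too narrow even for that error, because reads without molecular tags may be copies of the same molecule.

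In dura the summed level was 410 CPM (95% exact binomial interval 399 to 421) in replicate 1, 288 (280 to 296) in replicate 2, 333 (325 to 341) in replicate 3 and 316 (310 to 322) in replicate 4. The dura mean was 337 ± 52.1 CPM (SD, n = 4) and the leptomeninges mean 5.06 ± 2.26 CPM (SD, n = 4), a ratio of 66.5. Replicate 1 was the highest dura library and replicate 2 the lowest, and the order was the same without the leading 2 members, at 291, 221, 247 and 238 CPM. With scaling by TMM, a method that corrects for differences in RNA composition, the sums were 392, 290, 317 and 308 CPM. The leptomeninges sums as a percentage of the dura mean were 1.81%, 0.502%, 1.78% and 1.92% in replicates 1 to 4.

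**Figure D2:**
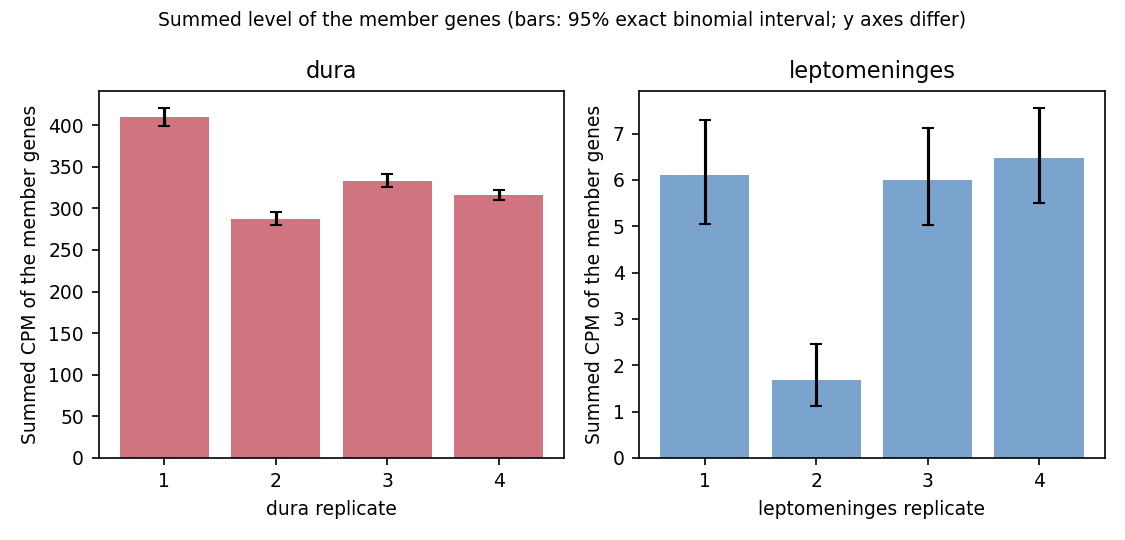
Summed CPM of the 37 genes (y axes, each from 0 and on different scales) in the 4 dura libraries (left) and the 4 leptomeninges libraries (right), with 95% exact binomial intervals as error bars. Dura replicate 1 is highest at 410 CPM, and leptomeninges replicate 2 is lowest at 1.69 CPM.

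The 37 genes also varied between the dura pools. The highest dura value of a gene was 1.09 to 8.11 times its lowest, with a median of 2.201. The coefficient of variation over the 4 dura libraries had a median of 0.327 and quartiles of 0.229 and 0.416. The 6652 other genes on in dura with a mean level in the same range had a median coefficient of 0.160 and quartiles of 0.109 and 0.236. The median ratio of highest to lowest was 1.44 in these other genes, and 32 of the 37 lay above that. Levels within this range were not matched between the sets, and low counts add spread of their own, so the comparison is a description.

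Dura replicate 1 was the highest dura library for 18 of the 37 genes (48.6%), and for 28.9% of the 6652 other genes. Replicate 4 was the highest for 1 gene (2.70%), against 19.9% of the others, while replicates 2 and 3 were highest for 7 and 11 genes. The typical level of a member relative to its own dura mean was 1.17 in replicate 1, 0.867 in replicate 2, 0.994 in replicate 3 and 0.939 in replicate 4 (medians over the 37 genes). Replicate 1 was the shallowest dura library and yet detected 21021 genes, against 14915 to 16345 in the other dura libraries, and the part of this difference in the result was not tested.

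The genes did not all follow replicate 1. In 4 genes the highest dura value was at least 4 times the lowest, and the high library differed among them. The member ranked 5 stood at 22.0, 2.72, 9.49 and 21.5 CPM in dura replicates 1 to 4, high in replicates 1 and 4. The member ranked 11 stood at 9.93, 4.46, 20.1 and 4.35 CPM, high in replicate 3. The member ranked 19 stood at 11.4, 2.07, 8.78 and 2.06 CPM, high in replicates 1 and 3 and close to the threshold in the other dura libraries. The member ranked 30 stood at 3.31, 2.23, 9.34 and 2.96 CPM, high in replicate 3. At the other end, 5 genes had a highest value under 1.5 times the lowest, among them the member with the lowest mean in dura, at 2.41, 2.39, 2.39 and 2.21 CPM. These genes were singled out after their values were seen.

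To measure the genes in a library that had not chosen them, the same thresholds were applied to the other 7 libraries and the genes then read in the library left out. Without dura replicate 1, 38 genes were chosen, and 37 of them were at 2 CPM or more in that library. The corresponding numbers were 37 of 46 for dura replicate 2, 37 of 41 for replicate 3 and 37 of 43 for replicate 4. The median level of the chosen genes in the library left out was 6.66, 3.91, 5.35 and 4.53 CPM in dura replicates 1 to 4. In dura replicates 1, 2 and 4 every gene chosen without the library was above all 4 leptomeninges values in it, and in replicate 3 this held for 40 of 41.

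Leptomeninges libraries left out gave 37 of 46 genes under 0.5 CPM in replicate 1, 37 of 42 in replicate 2, 37 of 43 in replicate 3 and 37 of 44 in replicate 4. The median level there was 0.205, 0, 0.182 and 0.245 CPM, and every chosen gene lay below all 4 of its dura values. The highest value of a chosen gene in the library left out was 5.03 CPM, in leptomeninges replicate 4. In each case the 37 are the members, because a chosen gene that also met the threshold there met the whole rule. Only the number chosen varied, and the 37 were between 80.4% and 97.4% of it. The exact 37 genes depend on every one of the 8 libraries, and the side on which they lay is fixed by the rule. The other chosen genes lay on the same side in the library left out, with the 1 exception in dura replicate 3.

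**Figure D3:**
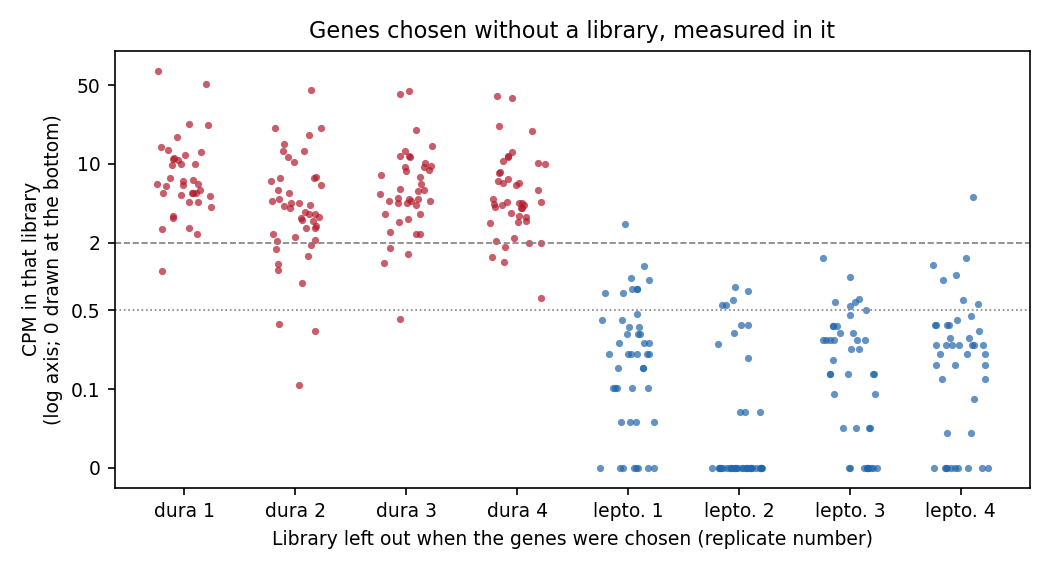
Level of the genes chosen on 7 libraries in the library left out (x axis, 4 dura libraries in red and 4 leptomeninges libraries in blue; y axis, CPM on a log scale with 0 drawn at the bottom). Each point is a gene, with 38 to 46 genes per library, and the lines mark 2 and 0.5 CPM. Dura points under 2 CPM and leptomeninges points at 0.5 CPM or more are the genes that missed the threshold, 1 in dura replicate 1 and 9 in dura replicate 2.

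The thresholds cut through a continuous range of genes. Just inside the dura threshold, the lowest dura values of the nearest 5 members were 2.06 to 2.39 CPM. Just outside, 5 genes that were off in leptomeninges had lowest dura values of 1.81 to 1.97 CPM. Just inside the leptomeninges threshold, the highest leptomeninges values of the nearest 5 members were 0.410 to 0.49994 CPM, and just outside the nearest 5 stood at 0.545 to 0.573 CPM.

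A single leptomeninges library kept out 9 genes in replicate 1, 5 in replicate 2, 6 in replicate 3 and 7 in replicate 4. The highest of these genes was at 202 ± 23.3 CPM in dura (SD, n = 4), above the leading member. It was kept out by 23 reads in leptomeninges replicate 4, or 0.941 CPM, while the other leptomeninges libraries held 6 reads together. The highest gene kept out by leptomeninges replicate 2, where it had 13 reads, was at 29.2 ± 2.94 CPM in dura (SD, n = 4).

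The share of members fell with the level in dura, where a fixed ceiling in leptomeninges asks for a larger ratio of a stronger gene. Among genes on in every dura library, the members were 14 of 618 genes (2.27%) with a mean of 2 to 5 CPM, and 14 of 1348 (1.04%) between 5 and 10 CPM. They were 7 of 1803 (0.388%) between 10 and 20 CPM, 2 of 2974 (0.0672%) between 20 and 50 CPM, and 0 of 4070 above 50 CPM. A ratio in place of the ceiling gave another picture. In 97 genes the lowest dura value was at least 10 times the highest leptomeninges value, and 44 of these had a mean above 50 CPM in dura. Of the 97, 25 were members and 72 were not. The median dura level was 8.66 CPM for those 25 and 60.2 CPM for those 72, of which the highest reached 3763 CPM.

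**Figure D4:**
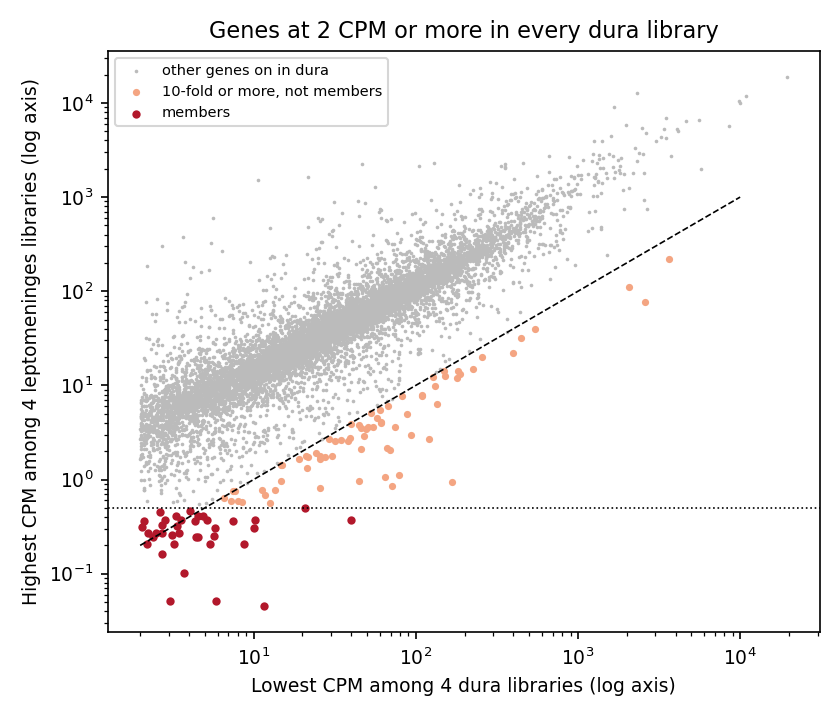
Lowest CPM among the 4 dura libraries (x axis) against highest CPM among the 4 leptomeninges libraries (y axis), both on log scales, for the 10813 genes on in every dura library. The 37 members (dark red) lie under the dotted line at 0.5 CPM. The 72 genes in orange lie under the dashed line of a 10-fold ratio and above 0.5 CPM, and extend to far higher levels in dura.

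The same thresholds with the tissues exchanged gave 6 genes on in leptomeninges and off in dura, against 37 in the direction described here. As shares, these were 0.0571% of the 10515 genes on in every leptomeninges library and 0.342% of the 10813 on in every dura library. The 6 genes summed to 50.3 ± 5.31 CPM in leptomeninges (SD, n = 4) and to 0.429 ± 0.312 CPM in dura (SD, n = 4). By the 10-fold ratio there were 32 genes in that direction and 97 toward dura.

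The count in the opposite direction changed with the dura library left out. Dura replicate 1 was the library with the most genes detected, and its part in this count was not tested. A library left out removes a condition of the rule, so the numbers in both directions can only stay or rise. Without dura replicate 1, 17 genes were on in leptomeninges and off in dura, and 38 were on in dura and off in leptomeninges. Without dura replicate 4 these numbers were 14 and 43. They were 9 and 46 without dura replicate 2, and 8 and 41 without dura replicate 3. Without dura replicate 1 and leptomeninges replicate 2 together they were 23 and 43. The number toward dura was the larger in each of these cases, and the difference between the numbers was not tested, since genes are not replicates.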

How the data were processed

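The authors deposited raw read counts per Ensembl gene, one table per library, and per the submitters' processing notes used bcl2fastq 2.20, STAR 2.5, featureCounts 1.5.0-p1 and build rn6. RNA came from TRIzol-purified sorted cells and TruSeq libraries, per the labels' protocols. The annotation release, strand setting and treatment of multimapping reads are not stated in these sources, so overlapping genes and near-identical copies are uncertain.

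CPM used the column sum of each table. The tissues were compared with edgeR 4.0.16 (R 4.3.3): filterByExpr, TMM, quasi-likelihood test, tissue as the only term, all 8 libraries, Benjamini-Hochberg adjustment. The test was checked on simulated data. Libraries of a tissue differed beyond sampling noise (chi-square per gene 18.4 to 49.0), so none was counted as a repeat. The p-values set the difference between the tissues against the spread between these pools.

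The members, lists and tests were chosen with earlier results of these data known. The rule for named genes gave, without symbols, the 2 members highest in dura. The 40 gene lists, promoters and gene neighbours planned for this comparison needed symbols and are not analysed here. Alternatives were other scalings, filters, tests (DESeq2 1.42.0, limma-voom from limma 3.58.1), thresholds, the replicate number as a block, and libraries left out. Thinning to a common depth, the 10-fold ratio and the exchanged tissues were added after seeing the data. The plan also did not list the readings in a library left out or the genes kept out by 1 library. Nor did it list the comparisons of the dura pools with the 6652 other genes.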

Additional observations from a re-analysis of the deposited data

Results flagged for a closer look

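In sets of 4 libraries of a tissue, 15 in all, Dixon's test picked out 2 values far from the other 3. Chance gives about 1 in 20 for a single set, but some of the sets share reads. The rule also used the leptomeninges values behind these flags, so the 2 values are given as a description. Both came from leptomeninges replicate 2 and measure the same reads. The summed level of the 37 genes was 1.69 CPM there, against 5.999 to 6.46 CPM in the other leptomeninges libraries. The number of the 37 genes with 0 counts was 29 there, against 8 to 10.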

How the results depend on the processing

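The 37 genes are those of 1 pair of thresholds. Their number was 66 with dura at 1 CPM or more, 12 with dura at 5 CPM or more, 12 with leptomeninges under 0.25 CPM, 84 with leptomeninges under 1 CPM and 159 with thresholds on tissue means. It was 37 with TMM scaling, all of them shared, and 37 after thinning, 33 of them shared. With single libraries left out it lay between 38 and 46. The 6 genes of the opposite direction became 16, 2, 4, 31 and 60 under the same 5 changes of threshold, 8 with TMM scaling, and 6 to 17 with single libraries left out. It was 23 with dura replicate 1 and leptomeninges replicate 2 both absent. The 10-fold ratio gave 50 genes toward leptomeninges without dura replicate 1 and 56 without dura replicate 4, against 32. It gave 60 without dura replicate 1 and leptomeninges replicate 2. With TMM scaling it gave 39 toward leptomeninges and 91 toward dura, against 32 and 97. The summed level in dura fell to 249 CPM without the leading 2 members. With a library left out it was 312 to 353 CPM in dura and 4.60 to 6.19 CPM in leptomeninges.

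The number of genes called between the tissues, 4317, stayed within 1.5 times that value in all 17 alternatives run. It was 4647 with DESeq2, 4299 after thinning and 3761 to 4249 with single libraries left out. Of the 37 genes, which were selected on this difference, limma-voom called 36 and each other alternative 37. Over all 13458 tested genes limma-voom called 2218 higher in dura. The fitted log2 fold change of ENSRNOG00000009291 was 7.68 to 8.73 with single libraries left out and 8.91 with limma-voom, against 8.14. That of ENSRNOG00000003221 was 6.56 to 7.22 with single libraries left out, 7.20 with limma-voom and 6.41 without both dura replicate 1 and leptomeninges replicate 2, against 6.87. With the replicate number as a block, 4400 genes were called. The deviations of same-numbered libraries correlated at 0.0816, 0.246, 0.161 and -0.0350 for numbers 1 to 4. Those of differently numbered libraries ran from -0.208 to 0.0830. Dura replicates 1, 2 and 3 correlated best with their own number, and dura replicate 4 did not. The labels state no pairing, so the numbers were not taken as pairs in the main fit, and whether they mark pairs was not tested. Counts in gene lists, planned as a further result, needed symbols and were not run. Depth limits what "off" means: a count of 3 stood for 0.123 to 0.188 CPM in leptomeninges.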
